A study of Mus musculus with 18 samples.

Results

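The 10 genes described here make, clear or sense prostaglandin E2 in the mouse colon: Ptgs1, Ptgs2, Ptges, Ptges2, Hpgd, Slco2a1, Ptger1, Ptger2, Ptger3 and Ptger4. They were taken by gene symbol, and all 10 were found among the 54532 genes of the deposited count tables. Poly(A) RNA of 18 libraries from C57BL/6 mice was sequenced, 8 from colorectal tumours and 10 from distal colon in colitis. Tumours came from the azoxymethane and dextran sulfate sodium (AOM/DSS) model, in which a carcinogen is combined with a detergent that injures the colon, with 2 libraries each of Il1f5-/-, Il1f5+/+, Il1f9-/- and Il1f9+/+ mice. Colitis was given by 2.5% DSS in the drinking water for 5 days and then plain water for 2 days, and a piece of 0.5 cm of distal colon was taken; there were 3 Il1f5-/-, 3 Il1f5+/+, 2 Il1f9-/- and 2 Il1f9+/+ libraries. Il1f5-/- and Il1f9-/- are called KO here, and Il1f5+/+ and Il1f9+/+ the WT of their line. Every tumour mouse had thus been given a carcinogen as well as DSS, every colitis mouse DSS alone, and no library came from an untreated colon. Il1f5 encodes the antagonist of the IL-36 receptor and Il1f9 encodes IL-36 gamma, 1 of its agonists. The labels give no age or sex, no sequencing date, and no word on the strategy of the deletions.

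Prostaglandin E2 is made in steps. Arachidonic acid is freed from membranes by phospholipases and turned into prostaglandin H2 by cyclooxygenase-1 (Ptgs1), which is present constitutively in many cells, or by cyclooxygenase-2 (Ptgs2), which is induced by inflammation. Prostaglandin E synthases then form prostaglandin E2: Ptges encodes the inducible microsomal enzyme that often works with cyclooxygenase-2, and Ptges2 a second membrane-associated enzyme. Slco2a1 encodes the transporter that takes prostaglandins up into cells, where Hpgd, 15-hydroxyprostaglandin dehydrogenase, inactivates them. Ptger1 to Ptger4 encode the receptors EP1 to EP4, of which EP2 and EP4 raise cyclic AMP, EP3 mostly lowers it and EP1 raises calcium. In the colon this system is known for epithelial repair after injury and for promoting tumours, and loss of Hpgd is a familiar feature of human colorectal cancer.

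Promoters of 4 of the genes are shown because the results below turn on them: Ptgs2 and Ptges varied together across the colitis libraries, and Slco2a1 and Hpgd were much lower in tumours. The sequences are RefSeq's, build GRCm38.p6, each running from 250 bases before the annotated start to 30 bases from it, in the direction of the gene. Capitals mark matches, on either strand, to the CRE core TGACGT, the E box CACGTG, the GC box GGGCGG and the TATA box TATAAA. The Ptgs2 window is chr1:150099781-150100060 on the plus strand, the Ptges window chr2:30903268-30903547 on the minus strand, the Hpgd window chr8:56294302-56294581 on the plus strand and the Slco2a1 window chr9:103008237-103008516 on the plus strand. By the deposited coordinates, whose build is not named, Ptges spans chr2:30889471-30929863 and Slco2a1 chr9:102988712-103096002. Their windows lie inside these intervals, so the RefSeq starts differ from the outermost starts of the genes as counted.
Ptgs2: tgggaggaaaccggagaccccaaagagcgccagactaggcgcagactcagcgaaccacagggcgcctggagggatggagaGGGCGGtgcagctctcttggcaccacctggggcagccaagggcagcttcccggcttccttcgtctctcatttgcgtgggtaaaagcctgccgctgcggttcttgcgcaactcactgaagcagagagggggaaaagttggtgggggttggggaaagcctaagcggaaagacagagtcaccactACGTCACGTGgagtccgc
Ptges: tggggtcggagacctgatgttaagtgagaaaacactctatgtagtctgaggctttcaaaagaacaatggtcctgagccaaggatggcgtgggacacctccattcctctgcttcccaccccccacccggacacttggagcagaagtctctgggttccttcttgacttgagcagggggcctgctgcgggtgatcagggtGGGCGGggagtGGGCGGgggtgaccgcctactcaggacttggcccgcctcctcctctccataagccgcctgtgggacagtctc
Hpgd: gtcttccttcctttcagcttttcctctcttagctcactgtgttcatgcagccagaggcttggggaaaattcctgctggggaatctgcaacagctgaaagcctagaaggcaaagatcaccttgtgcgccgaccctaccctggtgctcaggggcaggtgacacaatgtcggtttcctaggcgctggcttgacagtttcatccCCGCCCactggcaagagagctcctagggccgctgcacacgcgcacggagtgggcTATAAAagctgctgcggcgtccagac
Slco2a1: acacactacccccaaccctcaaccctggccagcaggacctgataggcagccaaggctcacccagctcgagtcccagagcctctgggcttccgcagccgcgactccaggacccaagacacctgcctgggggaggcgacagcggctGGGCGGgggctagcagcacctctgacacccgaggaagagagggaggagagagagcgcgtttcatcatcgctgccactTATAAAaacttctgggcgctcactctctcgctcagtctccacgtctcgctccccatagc

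Counted from the start base as 1, the Ptgs2 window held the CRE core, read on the opposite strand, at bases 13 to 18, overlapping by its last bases an E box at 17 to 22. In this gene a CRE and an E box are known to take part in its induction. Ptges held a pair of GC boxes, the nearer one 42 bases before the start. Slco2a1 held a TATA box 29 bases before its start, and Hpgd one that began at base 5. RefSeq promoters were matched for 9 of the 10 genes, all but Ptger1, and of those 9 only Ptgs2 held the CRE core. Of the 32851 promoter windows in the same table, 7.26% held the CRE core, 6.79% the E box, 34.7% the GC box and 13.1% the TATA box. These matches describe letters in a window and no binding was measured.

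Library totals ran from 16621611 to 23776174 counts. Where a level is compared between libraries it is in CPM (counts scaled to a common library total) after TMM scaling, and where genes are compared with each other it is that value per kilobase of gene length (RPKM). The deletion was checked first. Il1f9 had 2 and 0 counts in Il1f9 KO tumours, against 1652 and 752 in Il1f9 WT tumours, and 9 and 1 counts in Il1f9 KO colitis colon, against 232 and 90 in Il1f9 WT colitis colon. Il1f5 went against its labels: it had 211 and 102 counts in tumours labelled Il1f5 KO and 36, 43 and 45 in colitis colon labelled Il1f5 KO, and 0 counts in every other library, all WT included. These libraries are therefore given as labelled Il1f5 KO throughout, and the sign of every labelled Il1f5 KO difference holds only as far as those labels do. Epithelial markers (Epcam, Krt8, Cdh1, Vil1 and Krt20) were present in every library, with summed levels of 6772 to 16286 CPM in tumours and 6979 to 11099 CPM in colitis colon. Replicate 2 of the Il1f9 KO tumours stood apart in its summed smooth muscle markers, at 643 CPM, with 60.5 CPM in replicate 1. Nothing in the labels says whether libraries of a group came from separate mice, so p-values measure the spread between these libraries.

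Hpgd was the most abundant of the 10 transcripts per kilobase in both tissues, and the minor receptors the least. In tumours the median RPKM was 25.2 for Hpgd and 21.0 for Ptgs2, then 8.82 for Ptges2, 6.32 for Ptges, 5.08 for Ptgs1 and 4.31 for Ptger4. Slco2a1 followed at 1.61 RPKM, and Ptger2, Ptger1 and Ptger3 lay at 0.332, 0.148 and 0.122 RPKM. In tumours Hpgd exceeded Ptgs2 in 6 of 8 libraries, Ptgs2 exceeded Ptges2 in 5 of 8 and Ptges2 exceeded Ptges in 3 of 8, so the upper ranks were not separated, whereas Ptgs1 exceeded Ptger4, and Ptger4 exceeded Slco2a1, in 8 of 8. In colitis colon the median was 85.7 RPKM for Hpgd, above Ptgs2 at 12.8 RPKM in 10 of 10 libraries. Ptgs1 at 8.18, Slco2a1 at 7.48, Ptges at 6.36 and Ptges2 at 5.87 RPKM were interleaved, each above its neighbour in only 5 or 6 of 10 libraries. Ptger4 had 4.62 RPKM, above Ptger3 at 1.10 RPKM in 10 of 10 libraries, with Ptger2 at 0.680 and Ptger1 at 0.350 RPKM below. Part of Ptger4 overlaps Ttc33 on the opposite strand. The library kit did not keep strand, so reads from the shared stretch cannot be told apart by strand. Overlaps of the other members are not described here. Ptger1 had only 2 to 56 counts per library, and its values are the least certain here.

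**Figure D1:**
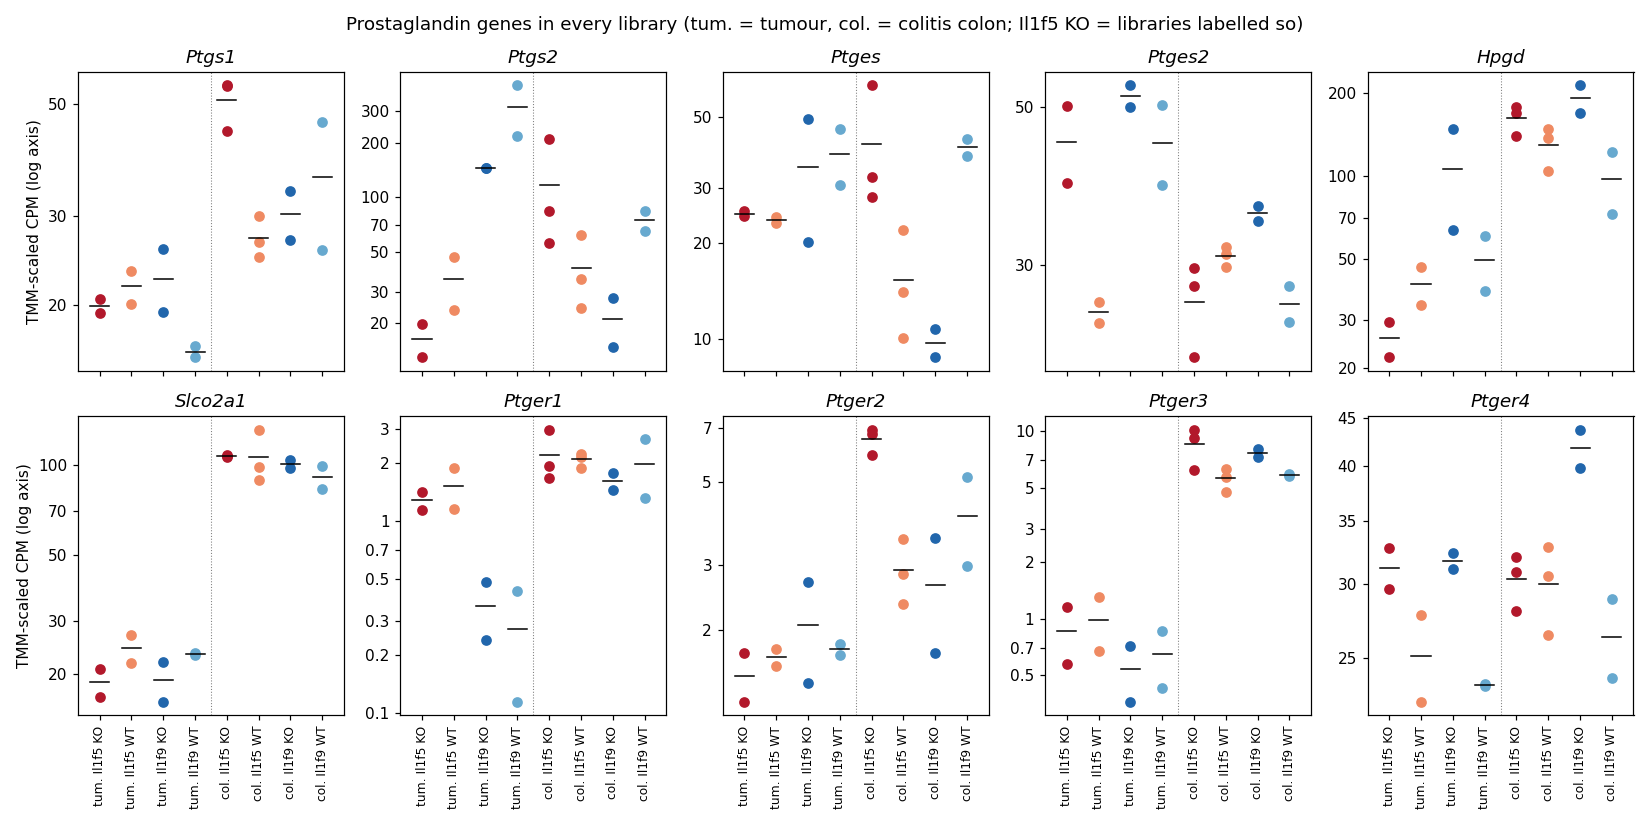
Each panel shows 1 gene, each point 1 library and each bar the group mean, in TMM-scaled CPM on a log axis; tumour groups stand left of the dotted line and colitis groups right of it. Slco2a1 and Ptger3 are the panels in which no tumour reaches any colitis library, at most 27.1 against at least 82.9 CPM for Slco2a1, and Ptgs2 and Ptger1 are the panels in which the tumours of the lines do not overlap.

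The comparison of tumours with colitis colon asked how the prostaglandin genes differ between tissues, taking the mean of the 4 tumour groups minus the mean of the 4 colitis groups. Clearance and receptor transcripts were lower in tumours: Slco2a1, Hpgd, Ptger1, Ptger2, Ptger3 and Ptger4 fell, Ptgs1 fell and Ptges2 rose. That is 8 of 10 genes past an adjusted p of 0.05 (edgeR quasi-likelihood test, Benjamini-Hochberg over 19514 genes), 7 lower and 1 higher. With no filter on low counts Ptgs2 and Ptges passed as higher as well and Ptger4 did not pass (adjusted p = 0.0822). Of all genes tested, 72.6% passed in either direction and 36.1% passed as lower, so a large share called is the rule in this comparison; the median log2 fold change was -0.96 over the 10 genes and -0.01 over all genes.

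Among the enzymes of synthesis, Ptgs1 had 15.8, 19.7 and 25.8 CPM (lowest, median and highest of 8 libraries) in tumours, against 24.9, 31.8 and 54.4 CPM (of 10) in colitis colon. The ranges touched, and the log2 fold change was -0.81 ± 0.11 (SE; adjusted p = 4.804e-06). Ptgs2 had 13.0, 96.1 and 417 CPM in tumours, against 14.8, 58.7 and 212 CPM in colitis colon, ranges that overlapped almost fully, and the log2 difference of 0.46 ± 0.31 did not pass (adjusted p = 0.2074). Ptges was likewise spread widely in both, with 20.2, 24.8 and 49.3 CPM in tumours, against 8.74, 25.0 and 63.0 CPM in colitis colon (log2 difference 0.41 ± 0.22, adjusted p = 0.1105). For Ptges2, 24.9, 44.6 and 53.6 CPM in tumours stood against 22.2, 29.7 and 36.3 CPM in colitis colon (log2 fold change 0.45 ± 0.08, adjusted p = 6.787e-05). Without colitis colon labelled Il1f5 KO replicate 2, Ptgs2 passed (adjusted p = 0.03907), and Ptges passed without that library (0.02544), without Il1f5 WT colitis replicate 3 (0.04859) or without Il1f9 KO tumour replicate 1 (0.03076).

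Both clearance genes were lower in tumours. Slco2a1, the uptake transporter, had 16.2, 21.9 and 27.1 CPM in tumours, against 82.9, 101 and 131 CPM in colitis colon, with no overlap and a log2 fold change of -2.24 ± 0.09 (adjusted p = 5.781e-12). Within each of the 4 groups it lay between -2.50 ± 0.18 (labelled Il1f5 KO) and -1.96 ± 0.19 (Il1f9 WT). Hpgd, the inactivating enzyme, had 21.9, 42.5 and 149 CPM in tumours, against 72.8, 144 and 214 CPM in colitis colon (log2 fold change -1.55 ± 0.19, adjusted p = 7.973e-06). The ranges overlapped because 1 Il1f9 KO tumour had 149 CPM. Within groups the Hpgd change was -2.67 ± 0.38 in those labelled Il1f5 KO, -0.86 ± 0.38 in Il1f9 KO, where it did not pass (adjusted p = 0.07549), -1.69 ± 0.36 in Il1f5 WT and -0.98 ± 0.38 in Il1f9 WT.

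Of the 4 receptors, Ptger3 had the largest fold change between tissues. It had 0.361, 0.696 and 1.30 CPM in tumours, against 4.77, 6.28 and 10.2 CPM in colitis colon, with no overlap and a log2 fold change of -3.20 ± 0.21 (adjusted p = 1.203e-09). Ptger1 (-1.55 ± 0.25, adjusted p = 3.616e-05) and Ptger2 (-1.11 ± 0.19, adjusted p = 7.071e-05) were also lower, with overlapping ranges. Ptger4 had the smallest, with 22.5, 28.7 and 32.7 CPM in tumours, against 23.8, 30.7 and 43.7 CPM in colitis colon (-0.20 ± 0.07, adjusted p = 0.01859). Its call was lost without Il1f9 WT colitis replicate 2 (adjusted p = 0.09012), Il1f9 KO colitis replicate 2 (0.05715), Il1f5 WT tumour replicate 1 (0.08147) or tumour labelled Il1f5 KO replicate 2 (0.06394). EP4 transcripts accordingly made up 80.8% to 92.7% of the summed RPKM of the 4 receptors in tumours, against 55.0% to 77.8% in colitis colon, and EP3 transcripts 1.21% to 4.64% in tumours, against 12.6% to 22.2%.

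**Figure D2:**
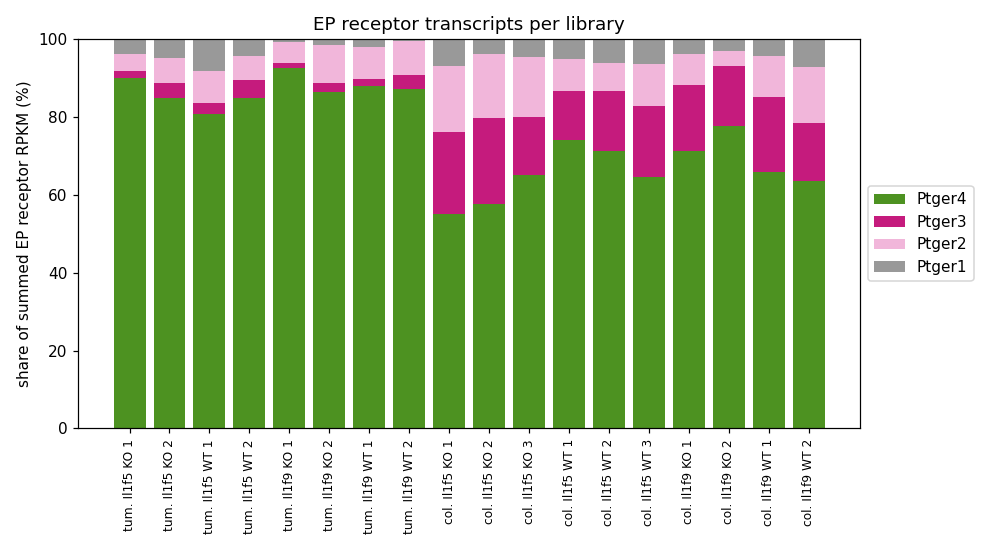
Each bar is 1 library and stacks the shares, in percent, of the 4 EP receptor genes in their summed RPKM, with tumours on the left and colitis colon on the right. Ptger4 takes at least 80.8% in each of the 8 tumours and at most 77.8% in each of the 10 colitis libraries.

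Smooth muscle and absorptive markers moved with these differences. All 5 smooth muscle markers were called lower, with summed levels of 60.5 to 643 CPM in tumours, against 1193 to 4012 CPM in colitis colon. All 5 absorptive colonocyte markers were called lower too, with sums of 287 to 1656 CPM in tumours, against 3140 to 11142 CPM in colitis colon; so were 5 of 5 markers of enteric neurons and glia and 4 of 5 of fibroblasts. No smooth muscle or absorptive marker was at 0 in a whole group. Their part in the lower Slco2a1, Hpgd and receptor levels was not tested, and in bulk tissue fewer cells of a type and less RNA per cell cannot be told apart. Of the 5 mast cell markers Cpa3, Fcer1a, Mcpt1 and Mcpt2 were called higher and Kit lower. Their sums over all 5 were 108 to 574 CPM in tumours, against 51.1 to 80.0 CPM in colitis colon. Of the neutrophil markers 4 of 5 were called higher.

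Taken group by group, 7 of 10 members passed between tissues in mice labelled Il1f5 KO, 7 in Il1f9 KO, 3 in Il1f5 WT and 8 in Il1f9 WT, where 56.3%, 51.5%, 41.7% and 58.3% of all genes did. Ptgs2 differed in sign between groups, and its difference between the lines was not itself tested. Within a line, KO against WT is the genotype effect in tumour minus colitis, tested below. It did not pass by edgeR in the Il1f5 (adjusted p = 0.05744) or Il1f9 line (0.7354). In the Il1f9 line Ptgs2 rose in tumours, by a log2 fold change of 2.78 ± 0.69 in KO (adjusted p = 0.006192) and 2.09 ± 0.66 in WT (adjusted p = 0.01904). In mice labelled Il1f5 KO it fell by 2.83 ± 0.67 (adjusted p = 0.003861) and in Il1f5 WT the value was -0.20 ± 0.60 (adjusted p = 0.8114). When the Il1f9 line was fitted alone, an analysis added after the values were seen, Ptgs2 (2.41 ± 0.28, adjusted p = 0.000255) and Ptges (0.86 ± 0.28, adjusted p = 0.0316) both passed as higher in tumours and Ptger2 no longer passed (-0.79 ± 0.35, adjusted p = 0.07718).

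**Figure D3:**
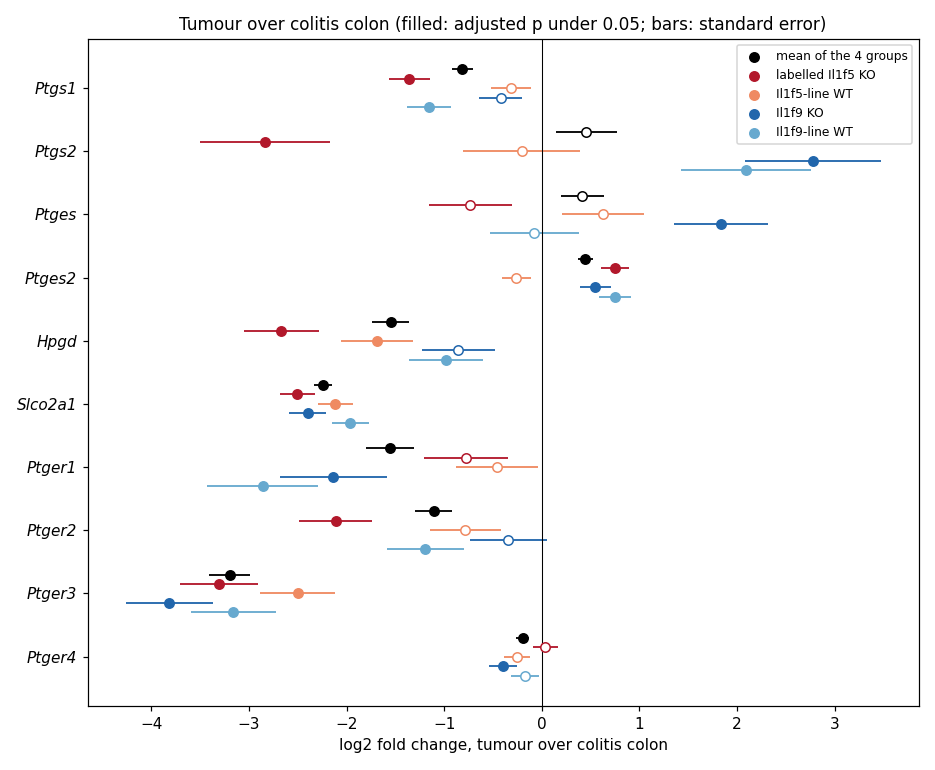
Points are log2 fold changes of tumour over colitis colon with their standard errors, black for the mean of the 4 groups and coloured for each group; filled points passed an adjusted p of 0.05. Slco2a1 and Ptger3 sit left of 0 in all 4 groups, and the Ptgs2 points lie on both sides, at 2.78 and 2.09 in the Il1f9 line and -2.83 and -0.20 in the Il1f5 line.

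In colitis colon the libraries labelled Il1f5 KO had more Ptgs1, Ptges, Ptger2 and Ptger3 than Il1f5 WT. These 4 of 10 genes rose and none fell, where 24.7% of 18299 genes passed in either direction and 13.7% as higher. Ptgs1 had 54.4, 54.3 and 44.2 CPM in those labelled Il1f5 KO, against 26.6, 24.9 and 29.96 CPM in WT, a log2 fold change of 0.91 ± 0.19 (adjusted p = 0.01014). Ptges had 32.5, 63.0 and 28.0 CPM, against 10.1, 14.1 and 22.0 CPM in WT (1.42 ± 0.37, adjusted p = 0.02914). For neither enzyme did the groups overlap. Ptgs2 had 55.5, 212 and 83.6 CPM in those labelled Il1f5 KO, against 24.2, 35.2 and 62.0 CPM in WT. The lowest library labelled Il1f5 KO lay below the highest WT library, and the log2 difference of 1.53 ± 0.60 did not pass (adjusted p = 0.1099; 0.04084 by DESeq2's Wald test).

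Ptger2 had 6.73, 6.92 and 5.91 CPM in libraries labelled Il1f5 KO, against 2.83, 2.35 and 3.52 CPM in WT, without overlap (1.16 ± 0.29, adjusted p = 0.01583). Ptger3 had 9.17, 10.2 and 6.25 CPM, against 4.77, 5.72 and 6.32 CPM in WT, where 1 library fell inside the WT range (0.61 ± 0.20, adjusted p = 0.04481). Hpgd (0.32 ± 0.20), Slco2a1 (0.01 ± 0.13), Ptger1 (0.07 ± 0.31) and Ptger4 (0.02 ± 0.11) did not pass, nor did Ptges2 (-0.21 ± 0.11). Ptges also missed the threshold with no filter on low counts (adjusted p = 0.0809), and Ptges (0.07276) and Ptger3 (0.06473) missed it when only these 2 groups were fitted. The Ptges and Ptger2 calls were each lost without WT replicate 1 (adjusted p = 0.07793 and 0.05929) or WT replicate 2 (0.0944 and 0.07042). The Ptger3 call was lost without any of the WT libraries (adjusted p = 0.1563, 0.1107 and 0.057 without replicates 1, 2 and 3) and without labelled Il1f5 KO replicates 1 (0.124) or 2 (0.1597). In the same libraries 4 of 5 fibroblast markers were called higher, with sums of 2209 to 2350 CPM in those labelled Il1f5 KO, against 1360 to 1518 CPM in WT, as were 5 of 5 endothelial markers (213 to 277 CPM, against 121 to 132 CPM in WT) and 3 of 5 of smooth muscle (2716 to 4012 CPM, against 1642 to 1836 CPM in WT). All 5 markers of enteric neurons and glia were called higher, with a median log2 fold change of 1.74 and sums of 44.8 to 75.1 CPM, against 18.2 to 28.0 CPM in WT. Of 4 tuft cell markers tested 2 were called higher (38.4 to 66.6 CPM, against 24.8 to 30 CPM in WT). Summed neutrophil markers ran from 172 to 553 CPM, against 83.1 to 187 CPM in WT, with 0 of 5 called. No marker of these lists was at 0 throughout a group, and their part in the higher Ptgs1, Ptges and receptor levels was not tested.

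In colitis colon of Il1f9 KO mice Ptges fell, and Hpgd and Ptger4 rose, relative to Il1f9 WT: 3 of 10 genes, where 19.6% of all genes passed. Ptges had 10.7 and 8.74 CPM in KO, against 42.6 and 37.9 CPM in WT, a log2 fold change of -2.05 ± 0.47 (adjusted p = 0.0206). Ptgs2 had 27.7 and 14.8 CPM in KO, against 84.4 and 64.8 CPM in WT; the groups did not overlap, yet the log2 difference of -1.82 ± 0.76 did not pass (adjusted p = 0.145). It passed when only these 2 groups were fitted (-1.83 ± 0.31, adjusted p = 0.02132). Hpgd had 170 and 214 CPM in KO, against 122 and 72.8 CPM in WT (0.98 ± 0.25, adjusted p = 0.02553). Ptger4 had 39.8 and 43.7 CPM in KO, against 23.8 and 28.9 CPM in WT (0.66 ± 0.14, adjusted p = 0.007324). Ptges2 was just outside the threshold (0.42 ± 0.14, adjusted p = 0.05113), and Ptgs1 (-0.25 ± 0.24), Slco2a1 (0.15 ± 0.16), Ptger1 (-0.31 ± 0.39), Ptger2 (-0.64 ± 0.36) and Ptger3 (0.39 ± 0.24) did not pass.

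With 2 libraries a group, leaving 1 out left 1 library in its group. A lost call therefore need not mean that the result leaned on that library. Over these fits the log2 fold change was -2.20 to -1.92 for Ptges, 0.65 to 1.39 for Hpgd and 0.53 to 0.81 for Ptger4. The Ptges call was lost without any 1 of the 4 (adjusted p = 0.09449 and 0.1289 without KO replicates 1 and 2, 0.07111 and 0.09464 without WT replicates 1 and 2). The Hpgd call was lost without KO replicate 1 (0.05116), KO replicate 2 (0.1406) or WT replicate 2 (0.1307), and the Ptger4 call without KO replicate 2 (0.06382). Without WT replicate 1, Ptgs1 passed (0.03305). Hpgd also missed the threshold when only these 2 groups were fitted (0.05625), and with no filter on low counts Ptges (0.06207) and Hpgd (0.1079) missed it while Ptges2 passed (0.04779; 0.03996 by DESeq2's Wald test). The neutrophil markers S100a8, S100a9, Csf3r, Cxcr2 and Retnlg were all called lower, with sums of 28.2 to 80.7 CPM in KO, against 597 to 1137 CPM in WT. Also lower were 4 of 5 macrophage markers (45.7 to 62.7 CPM in KO, against 159 to 228 CPM in WT) 4 of 5 of fibroblasts (976 to 1375 CPM, against 2024 to 2872 CPM in WT) and 4 of 5 endothelial markers (103 to 115 CPM, against 178 to 232 CPM in WT). Higher were 4 of 5 absorptive colonocyte markers, at 11137 to 11142 CPM in KO, against 3140 to 5787 CPM in WT, and 5 of 5 of smooth muscle. None of these markers was at 0 throughout a group, and their part in the Ptges, Hpgd and Ptger4 differences was not tested.

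**Figure D4:**
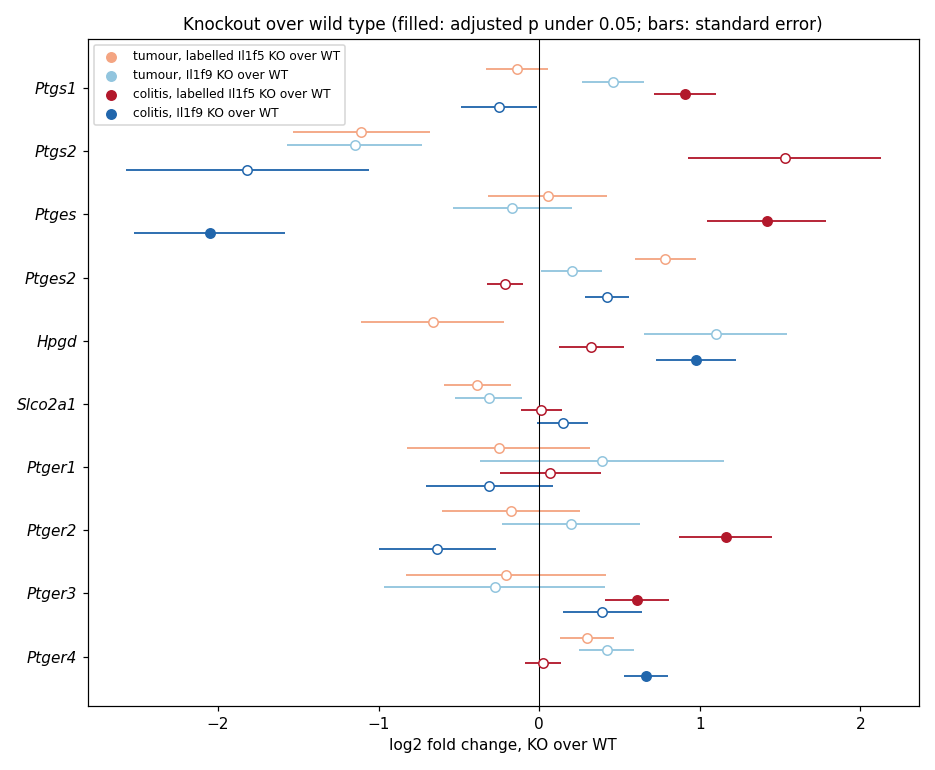
Points are log2 fold changes of KO over WT with their standard errors, pale for tumours and dark for colitis colon; filled points passed an adjusted p of 0.05. In colitis the Ptges points lie at 1.42 for libraries labelled Il1f5 KO and -2.05 for Il1f9 KO, and no tumour point is filled.

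The difference between the genotype effects in colitis colon, Il1f9 KO effect minus labelled Il1f5 KO effect, was itself tested and passed for 6 of 10 genes, where 24.8% of all genes passed. It was -3.47 ± 0.60 for Ptges (adjusted p = 0.006672), -3.35 ± 0.97 for Ptgs2 (0.04768), -1.16 ± 0.31 for Ptgs1 (0.0225) and -1.80 ± 0.47 for Ptger2 (0.01798). Both cyclooxygenases, Ptges and Ptger2 thus stood lower under Il1f9 KO relative to the effect under the Il1f5 KO label, while Ptger4 and the other prostaglandin E synthase, Ptges2, stood higher. The difference was 0.64 ± 0.18 for Ptger4 (0.02313) and 0.63 ± 0.18 for Ptges2 (0.02457). These values rest on the Il1f5 labels. With the sign of the labelled Il1f5 effect turned, a reading added after the values were seen, 3 of 10 genes passed: Hpgd (1.30 ± 0.32, adjusted p = 0.02418), Ptger3 (1.001 ± 0.31, 0.04621) and Ptger4 (0.69 ± 0.18, 0.02188). The share of all genes that passed under this reading is not given here, so the 3 are a description only. Ptges was then at -0.64 ± 0.59 (0.4904), Ptgs2 at -0.29 ± 0.95 (0.8631), Ptges2 at 0.21 ± 0.18 (0.4398), Ptgs1 at 0.66 ± 0.31 (0.1601) and Ptger2 at 0.53 ± 0.46 (0.4607), so that Ptger4 was the sole member called under both readings. The labelled Il1f5 effect on Ptger4 was 0.02, so both readings had to stay near its Il1f9 KO effect of 0.66. Of the 11 tested genes of the wider prostanoid synthesis list 4 were called higher and 1 lower in the difference taken by the labels. With no filter on low counts Ptgs1 (0.06418) and Ptgs2 (0.088) missed the threshold. The Ptgs2 value kept its call in only some of the fits with 1 library removed: its adjusted p was 0.08514 and 0.09882 without Il1f5 WT replicates 1 and 2, 0.05151 without labelled Il1f5 KO replicate 3, 0.08945 and 0.1742 without Il1f9 KO replicates 1 and 2, and 0.1036 and 0.1207 without Il1f9 WT replicates 1 and 2. The Ptges call held without any 1 of these 10 libraries. Ptgs1 lost its call without Il1f5 WT replicate 2 (0.05504), labelled Il1f5 KO replicate 1 (0.05401), Il1f9 WT replicate 2 (0.06456) or Il1f9 KO replicate 2 (0.09814), and Ptger2 without Il1f9 WT replicate 2 (0.0915) or Il1f9 KO replicate 2 (0.08058). Ptger4 lost it without Il1f5 WT replicates 1 (0.05862) or 2 (0.05651), labelled Il1f5 KO replicate 1 (0.05013), Il1f9 WT replicate 1 (0.07239) or Il1f9 KO replicate 2 (0.1099). Ptges2 lost it without Il1f5 WT replicate 1 (0.05378), Il1f9 WT replicate 2 (0.1148), Il1f9 KO replicate 1 (0.05007) or Il1f9 KO replicate 2 (0.1027). Without Il1f9 WT replicate 1, Hpgd passed (0.02255).

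In tumours no member passed for either genotype, with 0 of 10 called in each line by edgeR, where 0.0280% of 17859 genes passed for those labelled Il1f5 KO and 0.0168% for Il1f9 KO. At an unadjusted p under 0.05 there were 2 members for those labelled Il1f5 KO, Ptgs2 and Ptges2, where 23.0% of all genes stood at that level, and 4 for Il1f9 KO, Ptgs1, Ptgs2, Hpgd and Ptger4, where 8.70% did. By the labels, Ptgs2, Slco2a1 and Ptger4 had the same sign in both lines and no overlap in either. With 2 libraries a group this is a weak criterion. The share of all genes that met it was not computed, so it is given as a description only. With the Il1f5 labels turned, the signs of these genes would be opposite between the lines. Ptgs2 had 13.0 and 19.9 CPM in tumours labelled Il1f5 KO, against 46.6 and 23.8 CPM in Il1f5 WT (log2 difference -1.11 ± 0.43, adjusted p = 0.1914), and 146 and 146 CPM in Il1f9 KO tumours, against 417 and 219 CPM in Il1f9 WT (-1.15 ± 0.42, adjusted p = 0.5461). Slco2a1 had 20.9 and 16.8 CPM in tumours labelled Il1f5 KO, against 21.8 and 27.1 CPM in WT (log2 difference -0.39 ± 0.21), and 16.2 and 21.9 CPM in Il1f9 KO tumours, against 23.6 and 23.2 CPM in WT (-0.31 ± 0.21). Ptger4 had 32.7 and 29.6 CPM in tumours labelled Il1f5 KO, against 22.5 and 27.8 CPM in WT, and 32.3 and 31.1 CPM in Il1f9 KO tumours, against 23.4 and 23.5 CPM in WT. Hpgd had 21.9 and 29.4 CPM in tumours labelled Il1f5 KO, against 33.9 and 46.7 CPM in WT, and 149 and 63.4 CPM in Il1f9 KO tumours, against 38.2 and 60.2 CPM in WT. None of these differences passed. By DESeq2's Wald test 2 members passed in tumours labelled Il1f5 KO, Ptgs2 (-1.14, adjusted p = 0.02002) and Ptges2 (0.75, adjusted p = 0.01929), where that test called 10.1% of genes, and 0 in Il1f9 KO, where it called 1.14%. The difference between the genotype effects in tumours passed for 0 of 10 members by edgeR, where 0.0784% of genes passed; Hpgd was the sole member with an unadjusted p under 0.05 (Il1f9 KO effect minus labelled Il1f5 KO effect 1.76 ± 0.63, unadjusted p = 0.02775, adjusted p = 0.2369), where 17.2% of all genes stood at that level. It passed by DESeq2's Wald test (adjusted p = 0.01654), which called 4.37% of genes, and without Il1f9 KO tumour replicate 2 (0.0493). With the sign of the labelled Il1f5 effect turned, Hpgd was at 0.44 ± 0.62 (adjusted p = 0.7699) and again 0 of 10 members passed.

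Whether a genotype effect differed between tumour and colitis colon was tested over all 18 libraries. For the Il1f5 KO label it differed in 2 of 10 genes, Ptges2 (tumour minus colitis 1.01 ± 0.21, adjusted p = 0.006358) and Ptgs1 (-1.04 ± 0.29, adjusted p = 0.02288), where 18.1% of genes passed. Ptges2 had 50.3 and 39.1 CPM in tumours labelled Il1f5 KO, against 24.9 and 26.6 CPM in WT tumours, while in colitis colon it had 22.2, 27.9 and 29.7 CPM in those labelled Il1f5 KO, against 31.1, 29.7 and 31.7 CPM in WT. The Ptges2 call was lost without tumour labelled Il1f5 KO replicate 1 (adjusted p = 0.05945). The Ptgs1 call was lost without Il1f5 WT colitis replicate 2 (0.05505), labelled Il1f5 KO colitis replicate 1 (0.05257), Il1f5 WT tumour replicate 1 (0.09194) or labelled Il1f5 KO tumour replicate 1 (0.1117). Ptgs2, at -2.63 ± 0.86, lay just outside (adjusted p = 0.05744), and passed without Il1f5 WT colitis replicate 3 (0.0426) or labelled Il1f5 KO colitis replicate 1 (0.04034). For Il1f9 KO 0 of 10 members passed by edgeR, where 2.47% of genes did; Ptges was nearest (1.91 ± 0.66, unadjusted p = 0.01335, adjusted p = 0.1432) and passed without Il1f9 KO tumour replicate 1 (0.04954), as Ptgs1 did without Il1f9 WT colitis replicate 1 (0.04844).

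The WT mice of the lines were also compared, since they differ by no label other than their line. In tumours, Il1f9-line WT had far more Ptgs2 than Il1f5-line WT: 417 and 219 CPM, against 46.6 and 23.8 CPM, a log2 fold change of 3.20 ± 0.45 (adjusted p = 0.004258), or 9.17-fold. Ptges2 was higher, with 50.3 and 38.8 CPM in the Il1f9 line, against 24.9 and 26.6 CPM in the Il1f5 line (0.81 ± 0.19, adjusted p = 0.01375), and Ptger1 lower, with 0.429 and 0.115 CPM, against 1.87 and 1.15 CPM (-2.44 ± 0.67, adjusted p = 0.02601). These were 3 of 10 genes, where 28.5% of all genes passed; the 5096 genes called were 1670 to 2891 with any 1 of the 4 WT libraries left out. The Ptgs2 call held with any 1 of the 4 WT libraries left out. The Ptges2 call was lost without Il1f5 WT replicate 1 (0.09557), Il1f5 WT replicate 2 (0.06277) or Il1f9 WT replicate 1 (0.1048), and the Ptger1 call, which rests on 7 and 2 counts against 39 and 23, without Il1f5 WT replicate 1 (0.1558), Il1f5 WT replicate 2 (0.06068) or Il1f9 WT replicate 2 (0.1422). All 5 neutrophil markers were called higher in the same comparison, with sums of 1708 to 3994 CPM in Il1f9-line WT tumours, against 182 to 192 CPM in Il1f5-line WT tumours. Of the epithelial markers 3 of 5 were called higher (12691 to 15093 CPM, against 6772 to 7651 CPM) and of the mast cell markers 2 of 5 (232 to 294 CPM, against 111 to 134 CPM). The part of these markers in the Ptgs2 difference was not tested. Tumours of the lines were deposited in separate tables, and line cannot be told apart from whatever else differed between those cohorts.

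In WT colitis colon 0 of 10 genes passed between the lines by edgeR, where 4.93% of all genes passed. Ptges came nearest, with 42.6 and 37.9 CPM in the Il1f9 line, against 10.1, 14.1 and 22.0 CPM in the Il1f5 line (1.38 ± 0.40, unadjusted p = 0.008939, adjusted p = 0.08602; 0.02669 by DESeq2's Wald test). It was the sole member with an unadjusted p under 0.05, where 25.2% of all genes stood at that level, and it passed when only these 2 groups were fitted (adjusted p = 0.04357). The genotype effects on Ptges in colitis were thus read against WT levels that did not overlap between the lines. Without Il1f9 WT replicate 1, Ptgs1 passed in this comparison (0.02812).

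Ptgs2 and Ptges, the inducible enzymes of consecutive steps, rose and fell together across the 10 colitis libraries. Pearson's r of their log2 CPM was 0.945 (permutation p = 0.0001, adjusted p = 0.0004 over 4 relations computed) and Spearman's rho 0.939 (permutation p = 0.0003, adjusted p = 0.0012). Leaving out the 2 libraries farthest from the median of Ptgs2 gave r = 0.927. The permutation treats the 10 libraries as exchangeable although they come from 4 groups that differ in Ptges, and such differences enter r; between the deviations of both genes from their group means r was 0.912, given with no test. The 4 libraries of the Il1f9 line stood in the same order for both genes, as did the 3 Il1f5 WT libraries. Among the 3 labelled Il1f5 KO, replicate 2 was highest in both, at 212 CPM for Ptgs2 and 63.0 CPM for Ptges. No such relation was seen between Ptgs2 and Hpgd in colitis (r = -0.138, permutation p = 0.6975, adjusted p = 0.6975; rho = -0.139, permutation p = 0.7091, adjusted p = 0.7091; r = -0.137 without 2 libraries). In tumours the lines formed separate clusters for Ptgs2, at 146 to 417 CPM in the Il1f9 line and 13.0 to 46.6 CPM in the Il1f5 line, so no pooled r is given there. The 2 tumour relations counted among the 4, of Ptgs2 with Ptges and with Hpgd, did not pass (exact permutation test of Pearson's r, adjusted p = 0.1786 for each; of Spearman's rho, 0.6157 and 0.1924). The Il1f9 KO tumours had 20.2 and 49.3 CPM of Ptges at the same 146 CPM of Ptgs2.

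**Figure D5:**
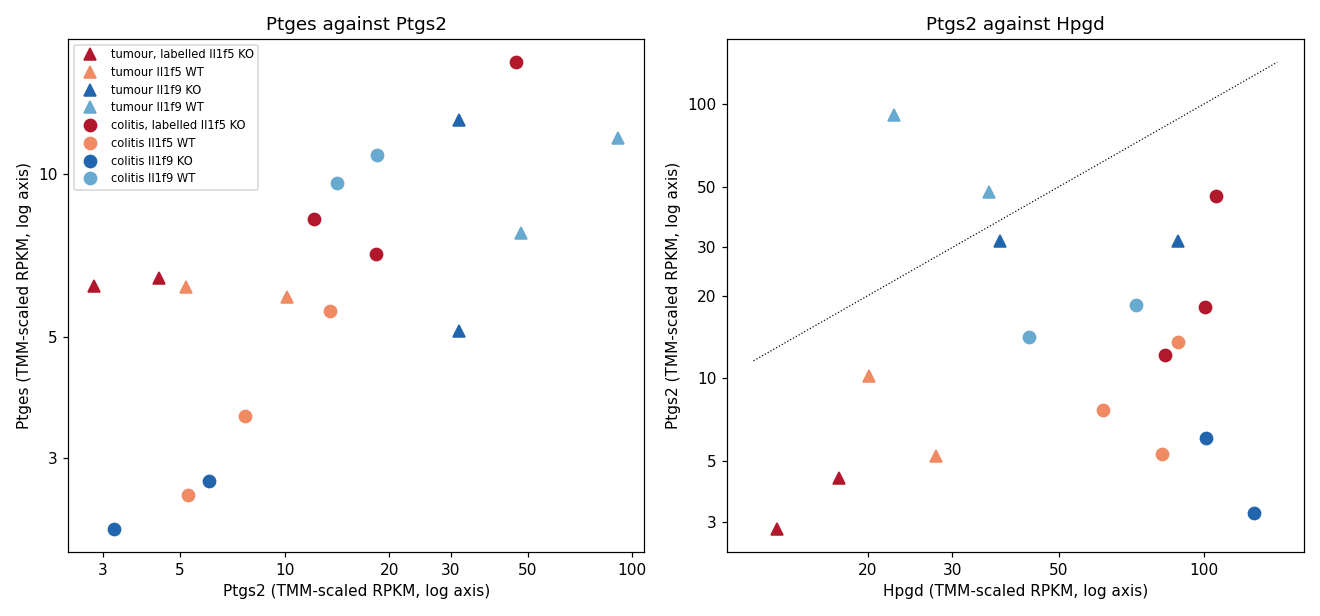
Each point is 1 library, triangles for tumours and circles for colitis colon, in TMM-scaled RPKM on log axes; the dotted line in the right panel marks equal values. Circles on the left run along 1 band (r = 0.945 over 10 libraries), and on the right the sole points above the dotted line are the 2 Il1f9 WT tumours.

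Ratios within a library put the same data on a scale that needs no library size. Of the summed RPKM of both cyclooxygenases, Ptgs2 made up 82.7% to 95.5% in the 4 tumours of the Il1f9 line and 36.4% to 62.8% in the 4 of the Il1f5 line. In colitis colon it made up 46.4%, 76.8% and 61.6% in those labelled Il1f5 KO, against 43.5%, 54.6% and 63.7% in their WT, and 41.2% and 31.8% in Il1f9 KO, against 73.6% and 54.4% in their WT. The ratio of Ptgs2 to Hpgd, synthesis over inactivation, was 0.360 and 0.843 in Il1f9 KO tumours, against 4.01 and 1.34 in Il1f9 WT tumours. The Il1f9 WT tumours were the only libraries of the 18 with a ratio above 1. The ratio was 0.218 and 0.249 in tumours labelled Il1f5 KO, against 0.506 and 0.187 in Il1f5 WT tumours. In colitis colon it lay between 0.0255 and 0.0600 in Il1f9 KO, against 0.255 and 0.327 in their WT, and between 0.146 and 0.436 in those labelled Il1f5 KO, against 0.0646 to 0.154 in their WT. These ratios are descriptions and were not tested.

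Genes with the pattern most like each member were found by Pearson's r of log2 CPM over all 18 libraries among 12736 genes with a mean of at least 1 log2 CPM. For Slco2a1 they were Hoxb4 (r = 0.986), Osr2 and Slc8a1, for Ptger3 Alpi (0.987), Bche and Pck1, and for Hpgd Slc30a4 (0.962), Cdc14a and Stim2. For Ptgs2 they were Gcnt2 (0.939), Entpd1 and Antxr2, for Ptges Cemip (0.933), Pla1a and Dio2, and for Ptger2 Medag (0.958), Gng2 and Nid1. Ptger4 had no close match, Tst being nearest at r = 0.865. These 18 points share the tissue difference, which sets high values for any gene that differs between tumour and colitis colon.

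Other genes of prostanoid metabolism, listed by role, were read beside the members. Between tumour and colitis colon 6 of 12 synthesis genes rose, 5 fell and 1 did not pass, where 72.6% of all genes passed. The secreted phospholipase Pla2g2a (log2 fold change 4.91 ± 0.37) and the prostaglandin D synthase Ptgds (16-fold) rose most, and the prostacyclin synthase Ptgis (-1.54 ± 0.16) and Pla2g5 (-1.37 ± 0.15) fell most. Ptgds lay near the floor, with group means of 0.719 to 1.68 CPM in tumours and 0.0140 to 0.272 CPM in colitis colon. The lowest Il1f9 KO tumour, at 0.120 CPM, was below the highest colitis library labelled Il1f5 KO, at 0.4875 CPM. Pla2g2a averaged 454, 354, 265 and 213 CPM in tumours labelled Il1f5 KO, of Il1f5 WT, of Il1f9 KO and of Il1f9 WT, and 2.99 to 18.4 CPM as a mean in the 4 colitis groups. The 3 other prostanoid receptors that could be tested all fell: Ptgfr (-2.52 ± 0.33), the prostacyclin receptor Ptgir (-2.15 ± 0.23) and the thromboxane receptor Tbxa2r (-1.26 ± 0.20). In breakdown and export, Abcc4, which exports prostaglandins from cells, rose by 2.65 ± 0.09 and the reductase Ptgr1 by 2.01 ± 0.09, while Zadh2 (-1.14 ± 0.06) and Ptgr2 (-0.53 ± 0.07) fell. Of 9 lipoxygenase and leukotriene genes 3 rose, Alox12 (5.93 ± 0.16), Alox15 (5.72 ± 0.20) and Lta4h (0.49 ± 0.06), and 3 fell. All of these calls had an adjusted p under 0.05 in the same edgeR fit.

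In colitis colon labelled Il1f5 KO, where 24.7% of all genes passed, all 3 tested receptors rose, Ptgir by 1.26 ± 0.30, Ptgfr by 0.96 ± 0.24 and Tbxa2r by 0.93 ± 0.23, and of 11 synthesis genes 2 rose (Ptgis, 0.98 ± 0.24; Fam213b, 0.47 ± 0.13) and 3 fell (Pla2g5, -1.57 ± 0.26; Ptges3, -0.62 ± 0.10; Akr1b3, -0.59 ± 0.14). Alox5, 5-lipoxygenase, rose by 1.39 ± 0.18 and Ptgr1 fell by 0.59 ± 0.12. In Il1f9 KO colitis colon, where 19.6% of all genes passed, Alox5ap, which serves 5-lipoxygenase, fell by 2.98 ± 0.50, the leukotriene B4 receptor Ltb4r1 by 2.48 ± 0.38, Cysltr1 by 0.96 ± 0.26, the thromboxane synthase Tbxas1 by 1.44 ± 0.28, Pla2g5 by 1.13 ± 0.31 and Ptgir by 1.37 ± 0.38. Cbr1 (1.43 ± 0.17), Ptgr1 (0.73 ± 0.14), Akr1b3 (0.65 ± 0.17), Pla2g10 (0.60 ± 0.14), Ptges3 (0.57 ± 0.12) and Zadh2 (0.38 ± 0.10) rose there. Alox5ap and Ltb4r1 are abundant in myeloid cells, and the neutrophil and macrophage marker sums given above for these libraries apply to them as well. In tumours 0 of these genes passed for either genotype by edgeR, with 5 (labelled Il1f5 KO) and 2 (Il1f9 KO) at an unadjusted p under 0.05, where 23.0% and 8.70% of all genes stood at that level. Between the WT lines in tumours, where 28.5% of all genes passed, 4 synthesis genes rose in the Il1f9 line, Ptgis (1.45 ± 0.41), Ptges3 (0.99 ± 0.20), Akr1b3 (0.75 ± 0.20) and the cytosolic phospholipase Pla2g4a (0.73 ± 0.15), 2 fell, and Alox5ap rose by 3.00 ± 0.57.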

How the data were processed

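The authors deposited 3 tables of whole-number counts per gene, made, per the submitters' processing notes, with Trim Galore 0.6.4, HISAT2 2.0.5 and featureCounts 2.0.0. Libraries were non-directional poly(A) libraries of 10 µg total RNA with paired reads of 150 bases, per the labels' protocols; the sources used here name no genome build. The deposited FPKM and comparison columns were not used. The 3 tables were joined by gene identifier, and no row lacked a gene name. Each tissue was fitted with 1 mean per group in edgeR 4.0.16 (TMM, filterByExpr, robust quasi-likelihood F test), over 18299 genes in colitis colon and 17859 in tumours, and all 18 libraries together for tissue differences, over 19514 genes; all 10 members passed the filter in each. Benjamini-Hochberg adjustment ran over all genes tested and the threshold was 0.05. SE is the log2 fold change divided by the square root of F. Levels are CPM scaled by TMM over all 18 libraries, and RPKM divides them by the deposited gene length. Correlations used log2 CPM with a prior count of 1, with 100000 or all permutations, two-sided. Scripts were tested on simulated data, with 2-fold and 4-fold changes each planted in 100 genes. Of the 2-fold changes 25% were recovered for Il1f9 KO over WT in tumours. For labelled Il1f5 KO over WT in colitis colon it was 62%, and for tumour over colitis colon 77%. Of the 4-fold changes 75%, 88% and 97% were recovered, in that order. Unchanged genes made up 14.5%, 5.66% and 4.92% of the calls. Alternatives were DESeq2 1.42.0 (Wald test, and its size factors in edgeR), no filter, the replicate number as a block, only the groups compared, a minimum absolute log2 fold change of 1 and each library left out; the Il1f9 line alone and a turned sign of the labelled Il1f5 effect were added after the values were seen. The members, gene lists, markers and named genes were chosen with earlier results of these data known: members in every comparison, list genes where called.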

Additional observations from a re-analysis of the deposited data

Results flagged for a closer look

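In colitis colon the genotype effects of the lines differed for 6 members by a test of the difference itself (edgeR quasi-likelihood test, adjusted over all genes), where 24.8% of all genes passed; with 1 library left out the count ran from 1 to 6. The Il1f9 KO effect minus the labelled Il1f5 KO effect was -3.47 on the log2 scale for Ptges (adjusted p = 0.006672), -3.35 for Ptgs2 (0.04768), -1.80 for Ptger2 (0.01798) and -1.16 for Ptgs1 (0.0225). It was 0.64 for Ptger4 (0.02313) and 0.63 for Ptges2 (0.02457). The Ptges effects themselves were -2.05 under Il1f9 KO and 1.42 under the Il1f5 KO label. The sign of the Il1f5 effects rests on labels that the Il1f5 counts go against. With it turned, 3 members passed, a count given without the share of all genes, and Ptges was at -0.64 (adjusted p = 0.4904).

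For the Il1f5 KO label the effect in tumours minus that in colitis colon was 1.01 for Ptges2 (adjusted p = 0.006358) and -1.04 for Ptgs1 (0.02288). Groups held 2 or 3 libraries, too few for a search for single libraries that stand apart in a group.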

How the results depend on the processing

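Of 649 values of single members under other settings, 588 kept their side of the threshold, 30 gained a call and 28 lost one. A further 3 changed direction with a call before or after. Of 810 with 1 library left out, 744 kept their side, 54 lost a call and 12 gained one. Changes of sign in values called neither before nor after were counted among those that kept their side. The 3 with changed direction came with the sign of the labelled Il1f5 effect turned in the colitis difference of genotype effects. Ptgs1 was then 0.66, Ptger2 0.53 and Ptger3 1.001, with 3 members called. DESeq2's size factors moved no count of members called. Requiring an absolute log2 fold change of 1 left 2 members for labelled Il1f5 KO and 1 for Il1f9 KO in colitis colon, and 5 for tumour over colitis colon. By DESeq2's Wald test there was 1 between WT lines in colitis, 2 for labelled Il1f5 KO in tumours, 1 for the difference of genotype effects in tumours, and 5 (Il1f5 line) and 1 (Il1f9 line) for the effect in tumour minus colitis. With no filter there were 3 (labelled Il1f5 KO) and 2 (Il1f9 KO) in tumours, 1 for their difference, and 5 and 1 for the effects in tumour minus colitis, while Ptges in both colitis genotype comparisons, Hpgd in Il1f9 KO colitis, Ptgs1 and Ptgs2 in the colitis difference and Ptger4 between tissues lost their calls. The Ptgs2 value for the Il1f5 line in tumour minus colitis was -2.63 with the filter and -2.62 without it. Its edgeR adjusted p moved from 0.05744 to 7.3e-29. Member counts in this section stand without the share of all genes called under each setting, so they show dependence on the settings only. Fitting only the groups compared left 2 for labelled Il1f5 KO in colitis, 1 for it in tumours and 1 between WT lines in colitis. With 1 library left out, counts ran from 1 to 4 and 0 to 3 for labelled Il1f5 KO and Il1f9 KO in colitis, 1 to 6 for their difference, 0 to 1 between WT lines in colitis, 0 to 0 for each genotype in tumours, 0 to 1 for their difference, 1 to 2 between WT lines in tumours, 7 to 10 for tumour over colitis colon, and 0 to 3 and 0 to 1 for the effects of the Il1f5 and Il1f9 lines in tumour minus colitis. Apart from those made by fewer libraries or a stricter rule, the cause of these shifts was not tested.

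The labels do not say whether same-numbered KO and WT libraries were paired. Their deviations from the group means correlated at -0.113 to 0.0003. In groups of 2 libraries the deviations mirror each other, so these values cannot exclude pairing. With the replicate number as a block, colitis labelled Il1f5 KO kept 2 members called, Ptges (adjusted p = 0.06318) and Ptger3 (0.09036) no longer passing, and the colitis difference lost Ptgs1 (0.05536) and Ptgs2 (0.1014). Depth limits Ptger1 and Ptger3 in tumours, where counts fell to 2 and 6.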
